A study of Drosophila melanogaster with 2 samples.

Results

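The data are peak lists from chromatin immunoprecipitation with sequencing (ChIP-seq) for charlatan, a zinc finger transcription factor that the gene chn encodes, in Drosophila melanogaster embryos. Described here are the charlatan peaks at crowded promoters that hold no close divergent gene pair: 90 of the 4537 summits that reached the authors' threshold on the irreproducible discovery rate (IDR), a measure of agreement between replicates, on build dm6. A summit, the highest point of a peak, was a member if it lay within 500 bp of the transcription start of a protein-coding gene, had starts of at least 2 protein-coding genes within 1000 bp, and had no head-to-head pair among them. A head-to-head pair is a minus-strand start to the left of a plus-strand start of another gene, at most 1000 bp away. The starts came from Ensembl (BDGP6.54). No measured signal entered the choice beyond the threshold itself. The 90 summits lay at 85 distinct sets of genes, and 172 genes had a start within 1000 bp of one. Of the members, 88 had 2 such genes and 2 had 3.

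The embryos were of mixed sex and 0 to 24 h old, from a transgenic line that stably makes charlatan with GFP at its C-terminal end. Chromatin bound by the tagged protein was pulled down with an antibody to GFP. The 2 samples are biological replicates of the same condition. Whole embryos were used, so a peak cannot be placed in a cell type or an hour of development. The background was the 270 weaker summits of the pooled list that fell in the same promoter class and overlapped no thresholded peak. Members and background differ by signal, which set the threshold, so signal was not tested between them. Its ranks were tested only against the other thresholded promoter summits. The tests take peaks as units, not embryos. Their intervals cover counting error over peaks, and the lists give no read totals, so depth is unknown.

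Charlatan has been proposed as a functional counterpart of the vertebrate repressor REST and acts in the development of the sensory organs and the nervous system of the fly. Many fly genes lie so close together that their promoters touch. In a head-to-head pair, 2 genes are read away from each other out of 1 shared stretch. In a tandem pair both are read the same way, so a summit between their starts lies inside or behind the first gene and in front of the second. In a pair with a shared start, both reading frames can lie on 1 messenger RNA, a dicistronic transcript. Where starts face each other, the transcripts run into each other's start. In none of these cases does a peak alone say which of the genes it serves.

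The windows of 61 bases centred on the summit show what some of the strongest members look like at base level. Windows on the chromosome arm that holds ytr/eIF6, the strongest member, were not printed, nor were those with over 30 untranslated bases. They are given for 8 of the 15 strongest members, on the plus strand of the Release 6 genome (RefSeq, dm6), with matches to the motifs searched in capitals.

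fray/CG7694 at chr3R:18584204-18584264: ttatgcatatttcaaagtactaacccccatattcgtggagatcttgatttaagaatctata

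CG42353/CG42354 at chrX:16105181-16105241: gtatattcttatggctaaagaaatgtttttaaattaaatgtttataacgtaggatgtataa

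CG31808/Cyt-c-d at chr2L:16716309-16716369: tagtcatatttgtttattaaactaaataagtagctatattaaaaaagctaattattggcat

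Nsun5/CG42359 at chr3R:19162349-19162409: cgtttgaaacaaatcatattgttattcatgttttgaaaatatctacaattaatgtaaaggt

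CG4586/Setd3 at chrX:6969425-6969485: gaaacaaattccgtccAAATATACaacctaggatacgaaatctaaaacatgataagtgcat

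Pgm1/SsRbeta at chr3L:16128722-16128782: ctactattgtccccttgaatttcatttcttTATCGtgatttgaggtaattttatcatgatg

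Amun/prtp at chrX:11716257-11716317: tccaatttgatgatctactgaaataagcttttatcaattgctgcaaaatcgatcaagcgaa

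CG33169/CG33170 at chr3L:22863767-22863827: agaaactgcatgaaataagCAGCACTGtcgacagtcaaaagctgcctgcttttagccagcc

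The capitals are core promoter motif 6 at CG4586/Setd3, the core site of the insulator protein BEAF-32 at Pgm1/SsRbeta, and core promoter motif 7 at CG33169/CG33170. The other 5 windows held none of the words searched around summits. Windows rich in A and T were common among the members: the median GC content of windows reaching 100 bp to either side of the summit was 38.1% in the members and 45.8% in the background. It was 39.3% at thresholded summits with 1 gene nearby and 36.8% at thresholded head-to-head promoters. By the same measure, the printed members had 32.3, 29.4, 33.8, 32.8, 39.8, 41.3, 31.8 and 50.7%, in the order above. Those of the 15 strongest that were not printed had 44.3, 40.8, 49.3, 29.4, 52.2, 32.3 and 48.3%. The printed members thus tended to be the richer in A and T. Coding sequence held 2.22% of member summits and 28.5% of background summits, and its part in their difference in GC content was not tested.

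Pooled summits at crowded promoters passed the threshold about as often as those at single-gene promoters and less often than those at head-to-head promoters. At crowded promoters 90 of 360 summits passed (25%, exact binomial 95% interval 20.6 to 29.8%). The share was 15.6% over all pooled summits and 30.5% over promoter summits. Beside promoters with starts of 1 gene, where 1205 of 4852 passed (24.8%), the odds ratio was 1.01 (95% interval 0.791 to 1.30), with an adjusted p of 1 (two-sided Fisher's exact test, Benjamini-Hochberg over 11 tests). Beside head-to-head promoters, where 1050 of 2475 passed (42.4%), it was 0.454 (0.353 to 0.584), with an adjusted p of 1.40e-09. The lower share than at head-to-head promoters held under every alternative tried. The match with single-gene promoters did not hold when crowding was counted within 500 bp: the odds ratio was then 1.59 (adjusted p 0.000666). That alternative also lowered the distance limit for head-to-head pairs. Of its 112 members, 64 had only a divergent pair at most 1000 bp apart. The effects of the 2 changes cannot be told apart.

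**Figure D1:**
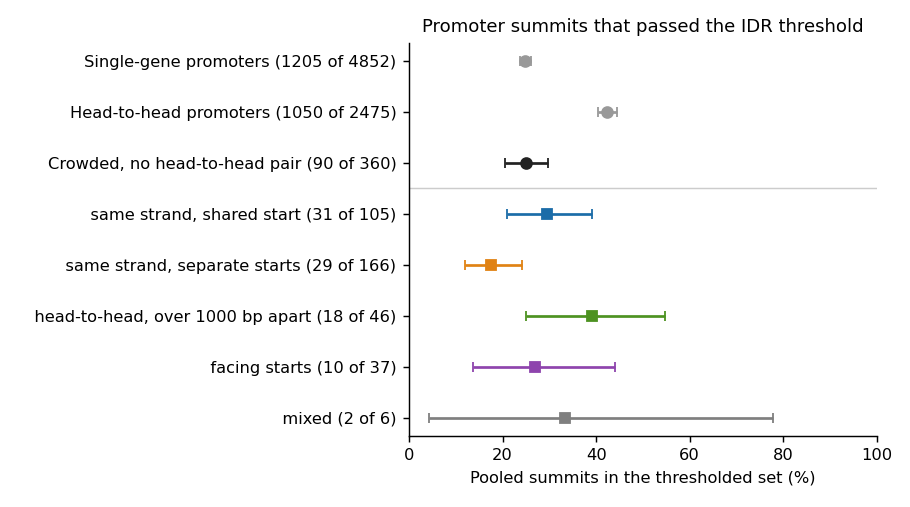
Share of pooled dm6 promoter summits in the thresholded set (x axis, %), with exact binomial 95% intervals, for 3 promoter classes (circles) and for the arrangements of starts inside the crowded class (squares). Crowded promoters (25%) sit level with single-gene promoters (24.8%) and left of head-to-head promoters (42.4%), and tandem starts that lie apart have the lowest share (17.5%).

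The class is a mixture by annotation. Of the 90 members, 31 had all starts on 1 strand with a start shared within 10 bp, 29 had all starts on 1 strand but apart, 18 had only a head-to-head pair more than 1000 bp apart, 10 had facing starts and 2 were mixed. With the mixed locus Dp/Fsn, 19 members held a divergent pair of wider spacing, as did 30 background summits, so the class lacks only the close ones. Of the 31 with a shared start, 18 had genes annotated with transcripts of the same start and end, where 2 gene names can stand for 1 promoter. Some of these loci also had an unshared start nearer the summit. The stronger Trl/CG42507 summit lay 106 and 732 bp from the nearest starts of its genes, and that of Hsp22/CG4456 413 and 653 bp.

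The share that passed the threshold ran from 17.5% (29 of 166) for separate tandem starts to 39.1% (18 of 46) for wide head-to-head pairs. It was 29.5% (31 of 105) for shared starts and 27.0% (10 of 37) for facing starts, and 2 of 6 mixed loci passed. The 5 arrangements and 8 other comparisons were added after the data had been seen and were adjusted as a family of 13. Separate tandem starts passed less often than the rest of the class, in which 61 of 194 did (31.4%, odds ratio 0.466, 95% interval 0.283 to 0.767, adjusted p 0.0100). That call was lost outside coding sequence, where the odds ratio was 0.658 (adjusted p 0.474). It was also lost under 4 other alternatives, with odds ratios of 0.292 to 0.609. Wide head-to-head pairs did not pass the test against the rest of the class (odds ratio 2.17, 1.14 to 4.12, adjusted p 0.0775), though they did under 3 alternatives, with odds ratios of 2.46 to 3.87. The lowest of these, with crowding within 500 bp, holds only pairs at most 1000 bp apart, so it does not bear on wider pairs. With a promoter distance of 300 bp the odds ratio of wide pairs was 1.498 (adjusted p 0.592), the lowest of the alternatives run. Beside close head-to-head pairs their odds ratio was 0.881 (0.488 to 1.59, adjusted p 0.903), an interval that leaves room for a difference in either direction.

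Among the members, 66.7% (60 of 90) had all starts on 1 strand, against 78.1% (211 of 270) of the background (odds ratio 0.558, 0.331 to 0.940, adjusted p 0.0945). The lower share passed the test under 3 alternatives: with crowding within 500 bp (0.492), with 1 start a gene (0.449) and with shared starts merged (0.416). The first of these also let divergent pairs at most 1000 bp apart into the class. The odds ratio came to 0.963 without replicate 2 (65 of 89 against 209 of 284, adjusted p 1). A shared start was found at 32 members (35.6%) and 77 background summits (28.5%, adjusted p 0.412). At least 3 genes lay near 2 members and 16 background summits (adjusted p 0.412). Among loci with a shared start, transcripts with the same start and end were found at 18 of 31 members and 59 of 74 background summits (odds ratio 0.357, 0.146 to 0.875, adjusted p 0.0775, added family). Loci with such transcripts passed the IDR threshold in 18 of 79 cases and the other loci in 25.6% (odds ratio 0.869, adjusted p 0.860, added family). None of these 5 passed the threshold of 0.05 in its family.

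The strongest of all members, a separate tandem pair, lay between ytr and eIF6 (2R, 23850248 to 23850555). It was 103 bp from the start of eIF6, a factor that binds the large ribosomal subunit, and 669 bp from that of ytr. Its pooled signal was 765, rank 40 of the 30000 pooled summits, and its signal was 456 in replicate 1 and 311 in replicate 2, ranks 36 and 44. Signal here is the peak caller's own value from the authors' lists and ranks peaks within a list. No other member had a pooled signal above 482. The next in this arrangement were Gmppa/Vha14-1 and CG33169/CG33170. Gmppa encodes a homologue of a subunit of the enzyme that makes GDP-mannose, and Vha14-1 a subunit of the proton pump of acidic organelles. The Gmppa/Vha14-1 summit had a signal of 119 in replicate 1 and 148 in replicate 2, at ranks 768 and 245. This ratio of ranks was among the 3 largest of the 84 members matched in both replicates. The CG33169/CG33170 summit, whose window is printed above, had signals of 132 and 104 in the replicates.

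Summits with separate tandem starts tended to lie in front of the downstream gene. At 27 of 29 members the nearest start was that of the downstream gene, against 87 of 137 background summits (odds ratio 6.35, 1.66 to 24.3, adjusted p 0.0100, added family). Of the 29, 25 summits lay between the starts, where being nearest the downstream start and being upstream of the nearest start are the same thing. Outside coding sequence the odds ratio fell to 2.90 (adjusted p 0.474), and with crowding within 500 bp it was 1.05. Starts of CG1738, NdufV3 and CG1737 lay within 1000 bp of 1 summit on X, 4 bp from that of NdufV3, which encodes a subunit of respiratory complex I. This member had a pooled signal of 84.7, with 58.0 and 33.7 in the replicates.

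Shared starts held 5 of the 7 next strongest members. Sesn, which encodes the stress-inducible growth regulator sestrin, shares its start with CG46429 (2R, 23713486 to 23713828). Its pooled signal was 482 with replicate values of 305 and 176. CG42353/CG42354 on X had a pooled signal of 452 (262 and 188) and fray/CG7694 on 3R 425 (247 and 182). fray encodes a serine/threonine kinase needed for the ensheathing of peripheral nerves by glia. These 3 summits lay 212, 265 and 239 bp upstream of the shared start. Cyp6u1/Ufsp1 had a pooled signal of 395 (218 and 177), with the summit 7 bp inside the start of Ufsp1, which encodes a protease of the ubiquitin-like modifier UFM1. At Nsun5/CG42359 the pooled signal was 332 (179 and 155) and the summit lay 79 bp from the shared start. Nsun5 encodes an RNA methyltransferase. At Trl, which encodes the GAGA factor, 2 summits 935 bp apart were members. The stronger had a pooled signal of 240 (132 and 110) and lay 106 bp inside the nearest start of Trl.

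Of the 10 members with facing starts, 2 had much higher signals than the other 8. CG13501/Snp (2R, 22061670 to 22061940) had a pooled signal of 451 with replicate values of 251 and 202, and lay 288 bp from the start of CG13501. Snp encodes the exonuclease Snipper. CG31808/Cyt-c-d (2L, 16716202 to 16716459) had a pooled signal of 371 (199 and 172) and lay 144 bp from the start of CG31808 and 378 bp from that of Cyt-c-d. Both summits lay outside the stretch between the facing starts, as did 7 of the 10 in this arrangement. Cyt-c-d encodes a cytochrome c that acts in the testis. The next, CG15706/CG15701, had a pooled signal of 129 (70.2 and 60.4), so the first 2 stood apart from the other 8.

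Wide head-to-head pairs were led by CG4586/Setd3 on X (6969359 to 6969553), with a pooled signal of 270 (161 and 111). The starts lay 1168 bp apart and the summit 463 bp from that of CG4586. Pgm1/SsRbeta on 3L had a pooled signal of 243 (143 and 92.5) and Amun/prtp on X also 243 (140.5 and 101.2). Pgm1 encodes phosphoglucomutase, SsRbeta a subunit of the signal sequence receptor of the endoplasmic reticulum, and prtp a protein of that compartment that Draper binds when dying cells are engulfed. CG9776/CG14645 on 3R, with a pooled signal of 95.4, was at rank 7953 in replicate 1 and 1603 in replicate 2, also among the 3 largest ratios of ranks.

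The 2 mixed loci were Dp/Fsn and Alp12/CG13085/Pax. Dp encodes the dimer partner of the E2F cell cycle factors and Fsn an F-box protein that acts at synapses. The Dp/Fsn summit (2R) had a pooled signal of 306 (185 and 123) and lay 193 bp from the start of Dp. Alp12/CG13085/Pax on 2L, near the gene of the focal adhesion protein paxillin, had a pooled signal of 98.3. It had a summit within 100 bp in replicate 2 (55.3) and none in replicate 1.

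**Figure D2:**
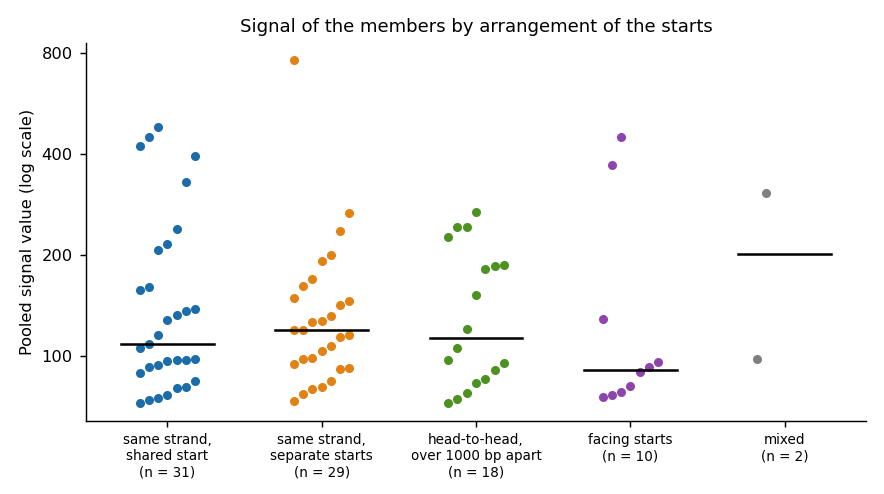
Pooled signal value (y axis, log scale, the caller's unit) of each of the 90 members by the arrangement of the starts, with the median of each arrangement as a black line. Medians lay between 91.3 for facing starts and 120 for separate tandem starts among the 4 larger arrangements, and 1 member, ytr/eIF6, stands above all others at 765.

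Pooled signal of the members ran from 72.4 to 765, with a median of 112. The middle of the range was narrow, with quartiles of 90.2 and 179. Of the members, 23 of 90 (25.6%) were among the 1000 strongest thresholded peaks, beside 578 of 2255 (25.6%) other thresholded promoter summits (odds ratio 1.01, 0.625 to 1.63, adjusted p 1). The deposited q-value was at its limit for 76 of the 90, so ranks rest on signal. Of the intervals, 73 were 400 bp wide. Members lay on all the large arms, 28 on 2R, 20 on 3L, 19 on 3R, 14 on X and 9 on 2L. The share on X was 15.6% in the members and 13.7% in the background (adjusted p 0.889).

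The threshold cut through a continuous range. The weakest members were CG43783/orb2 at a pooled signal of 72.4, Syx7/Alp1 at 72.6 and gnu/NHP2 at 73.7. orb2 encodes an RNA-binding protein of the CPEB family that acts in long-term memory, Syx7 a syntaxin, gnu a regulator of the early embryonic cell cycles and NHP2 a protein of the particles that modify ribosomal RNA. Just below the threshold lay the summit at the start shared by tal-1A, tal-2A, tal-3A and tal-AA, at 71.3, rank 4551. These names are the small peptides of the tarsal-less transcript. Sur-8/CG34279 followed at 71.1 and CG11170/CG11275 at 70.5. Sur-8 encodes a scaffold of the Ras pathway.

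Of the 90 members, 84 had a replicate 1 summit within 100 bp and 89 a replicate 2 summit. The CG43783/orb2 summit had none in either list, and gnu/NHP2 had none in replicate 1. Median distances between pooled and replicate summits were 6.5 bp in replicate 1 and 9 bp in replicate 2. Over the 84 matched in both, Spearman's rho of the signals was 0.712 and Pearson's r of their log2 values was 0.817. These peaks come from the same 2 libraries and the pooled list was made from both, so the values are a description. Among the 4537 strongest summits of both replicates were 63 of 90 members (70%) and 1668 of 2255 other thresholded promoter summits (74.0%, odds ratio 0.813, 0.515 to 1.28, adjusted p 0.542). Among the 4537 strongest of neither were 2 members.

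**Figure D3:**
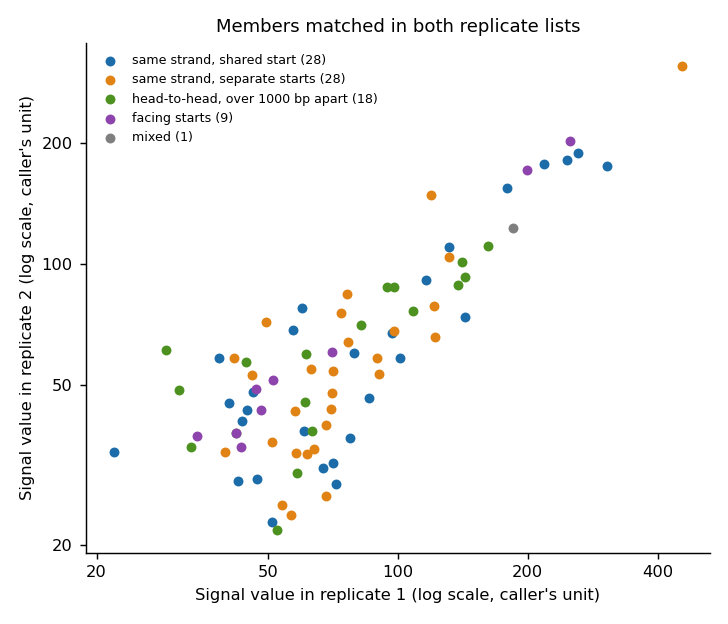
Signal value in replicate 1 (x axis) and replicate 2 (y axis), both on log scales in the caller's unit, for the 84 members matched within 100 bp in both lists, coloured by arrangement. The strongest members lie close to a line, with ytr/eIF6 at 456 and 311, and the weaker ones spread more widely.

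At 5 loci 2 members lay at the same set of genes. They were Trl/CG42507 with summits 935 bp apart, Galphaq/CG45086 with 512 bp, CG42637/Gyc76C with 214 bp, SLC5A11/CG8419 with 202 bp and anox/SLIRP1 with 199 bp. Gyc76C encodes a receptor guanylyl cyclase and Galphaq a G protein subunit of phototransduction. The summits of CG42637/Gyc76C had pooled signals of 136 and 106. In replicate 1 the weaker of the pair was at rank 5265 and in replicate 2 at rank 1731, the third of these ratios. Such pairs share genes and sequence and are not independent. Keeping 1 summit per promoter left 85 members and 233 background summits. Another thresholded summit lay within 1000 bp of 25 members and within 5000 bp of 54.

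Member summits lay mostly in front of a start and almost never in coding sequence. The nearest start was downstream of the summit for 78 of 90 members (86.7%) and 167 of 270 background summits (61.9%). The odds ratio was 3.88 (2.04 to 7.40), with an adjusted p of 2.54e-05. In coding sequence lay 2 members (2.22%) and 77 background summits (28.5%), an odds ratio of 0.0705 (0.0195 to 0.255, adjusted p 3.25e-08). Without replicate 2 it was 0.0446. Few of the other thresholded promoter summits lay in coding sequence either, 7 of 1205 with 1 gene nearby (0.581%) and 6 of 1050 at head-to-head promoters (0.571%), and the members were not tested against them. The 2 measures overlap. Among summits outside coding sequence, the upstream share was 76 of 88 members and 140 of 193 background summits, and the odds ratio of 2.33 did not pass the test (adjusted p 0.0707). For the 1000 strongest peaks it was 3.62 (adjusted p 0.0725). In wide head-to-head pairs every summit lies upstream of both starts by construction. With every locus that holds such a pair left out, mixed ones included, 59 of 71 members and 137 of 240 background summits lay upstream (odds ratio 3.58, adjusted p 0.000161).

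The median position was at -127.5 bp from the nearest start in the members and -66.5 bp in the background. By arrangement the member medians were at -66 bp for separate tandem starts, -89 bp for shared starts, -118 bp for facing starts and -302 bp for wide head-to-head pairs. Background medians were at -30 bp, -17 bp, -51 bp and -264 bp in the same order, so in each of these 4 the members lay farther upstream. Within 100 bp of a start lay 35 of 90 members (38.9%) and 31.5% of the background (adjusted p 0.412). The member share was close to that of thresholded single-gene promoters (38.7%, odds ratio 1.01, 0.655 to 1.57, adjusted p 1, added family). It was below that of thresholded head-to-head promoters (69.7%, odds ratio 0.278, 0.179 to 0.432, adjusted p 1.83e-07, added family), and stayed below under every alternative. The class rule itself sets how far apart divergent starts lie in the 2 classes, so this difference depends in part on the rule. The upstream share was 81.6% at thresholded single-gene and 80.4% at thresholded head-to-head promoters, and the members did not pass the test against either (adjusted p 0.419 and 0.355).

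**Figure D4:**
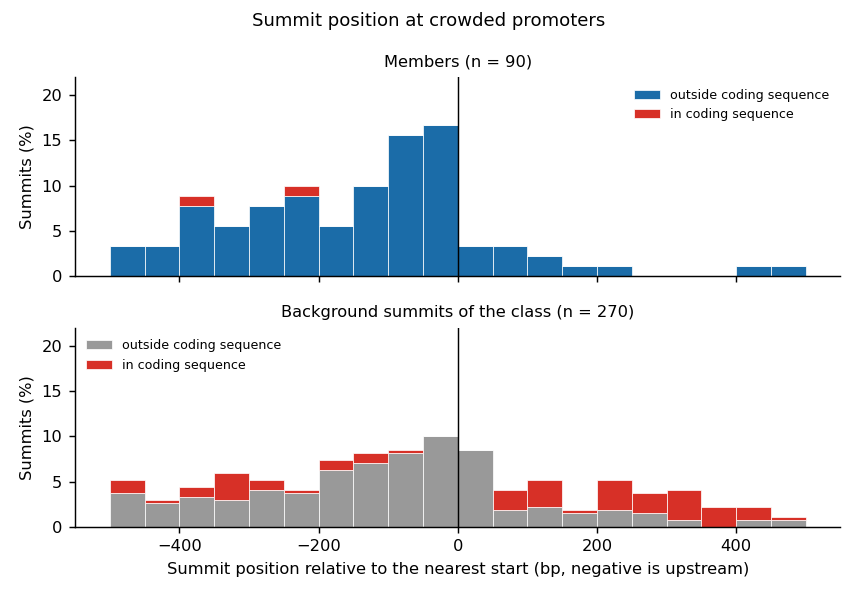
Position of the summit relative to the nearest annotated start (x axis, bp, negative is upstream, bins of 50 bp) as a share of the 90 members (top) and the 270 background summits of the class (bottom, y axes in %), with summits in coding sequence in red. Members are gathered upstream of the start (86.7%), and the red share is 2.22% in the members and 28.5% in the background.

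No sequence word set the members apart from the background of the class. Of the 18 motifs, 0 passed the test in these windows (two-sided Fisher's exact test, Benjamini-Hochberg over the motifs), 0 had an unadjusted p under 0.05, and the smallest adjusted p was 0.653. Of the 8192 7-mers, 0 were called enriched and 0 depleted, a background of 0% for either call, where a call also needed an odds ratio past 1.5 or its inverse beside an adjusted p under 0.05. At an unadjusted p under 0.05 were 257 higher and 38 lower 7-mers. The smallest p-values belonged to ACGAAAT, in 12 of 90 members and 5 of 270 background windows, and AAACACT, in 10 and 3 (adjusted p 0.375 for both). ACAAATA (18 and 16 windows), ATTATAC (7 and 1) and AAAAAAG (19 and 19) came next, and each of the 10 of smallest p was the more frequent in the members. The members' windows were richer in A and T than those of the background.

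The motif counts, searched on both strands, were as follows. The DRE, TATCGATA, a site of DREF at housekeeping promoters, was in 7 members (7.78%) and 9 background windows (3.33%), an odds ratio of 2.47 (0.920 to 6.64). Without replicate 2 it was 1.31 (5 of 89 against 13 of 284, adjusted p 1). In windows of the same length at the most upstream start of each of 13945 protein-coding genes it was in 7.84%. The BEAF-32 core CGATA, which overlaps the DRE, was in 34 members and 77 background windows, and in 39.4% of all promoters. The GATA word AGATAA was in 13 and 22, and in 10.8% of all promoters. The E-box CAGCTG, the kind of site that proneural proteins bind, was in 11 and 44 and in 13.8% of all promoters. The GAGA word GAGAGAG was in 3 and 17. The Zelda word CAGGTAG and the Ets word CCGGAAG were in 0 of the 90 members, which allows a share of up to 3.33% (3 counts of the total), and in 6 and 7 of the 270.

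**Figure D5:**
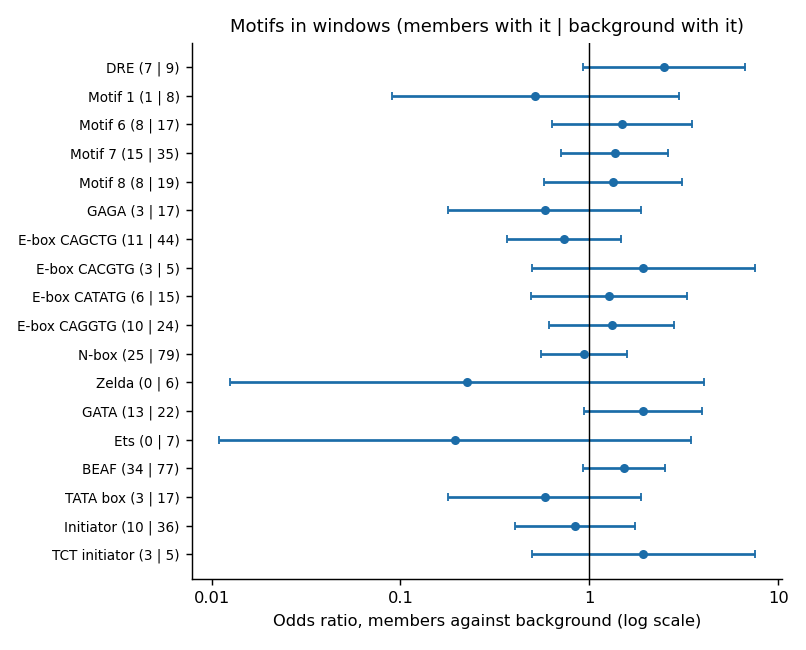
Odds ratio (x axis, log scale) with its 95% interval for each of the 18 motifs in members against the background of the class, with the number of the 90 members and of the 270 background summits that hold it. Each of the intervals includes 1, among them that of the DRE at 0.920 to 6.64.

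Beside the other thresholded promoters, 36 more motif tests were added after the data had been seen. Motif 7, whose core is CAGCNCTA, CAGCNCTG, CATCNCTA or CATCNCTG, was in 15 members (16.7%) and in 345 of 1050 thresholded head-to-head summits (32.9%, odds ratio 0.419, 0.239 to 0.735, adjusted p 0.0269). It was in 15.2% of all promoters. The windows are centred on summits, and 38.9% of members but 69.7% of thresholded head-to-head summits lay within 100 bp of a start. The windows thus reach a start unequally often in the 2 sets, and the part this plays was not tested. The Initiator, TCAGTC or TCAGTT on the gene's strand within 10 bp of the nearest start, was at 10 members (11.1%) and 34 head-to-head summits (3.24%, odds ratio 3.84, 1.86 to 7.95, adjusted p 0.0269). It was at 9.31% of all promoters. Both kept their direction under all 12 alternatives tried, but each lost the call under 8 of them. Against thresholded single-gene promoters 0 of the 18 motifs passed, and the smallest adjusted p was 0.230 for GAGA.

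The 7 DRE sites are examples of a word that was not called against the background, and were chosen after the values had been seen. They are given for 6, with 14 bases on either side of the site in capitals, on the plus strand of the Release 6 genome (RefSeq, dm6).

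Nsun5/CG42359 at chr3R:19162288-19162323: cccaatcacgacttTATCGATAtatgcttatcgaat

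l(3)73Ah/CG32163 at chr3L:16588247-16588282: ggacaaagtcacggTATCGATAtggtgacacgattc

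MEP-1/CG42245 at chr3L:2631524-2631559: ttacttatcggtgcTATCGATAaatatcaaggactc

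CG7006/Nct at chr3R:24850571-24850606: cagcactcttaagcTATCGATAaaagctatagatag

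CG14971/CG32267 at chr3L:3471400-3471435: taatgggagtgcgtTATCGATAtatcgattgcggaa

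Syx7/Alp1 at chr3L:21445727-21445762: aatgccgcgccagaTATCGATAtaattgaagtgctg

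The site lay 5 bp from the summit at l(3)73Ah/CG32163, 22 bp at CG7006/Nct and 43 bp at CG14971/CG32267, and 61 to 87 bp from it at the other three. Nct encodes nicastrin, a subunit of gamma-secretase, and MEP-1 a zinc finger protein of a chromatin remodelling complex. Pooled signals at these loci were 332 for Nsun5/CG42359, 162 for l(3)73Ah/CG32163, 158 for MEP-1/CG42245, 149 for CG7006/Nct, 80.0 for CG14971/CG32267 and 72.6 for Syx7/Alp1. The site not printed was that of ytr/eIF6 on 2R, the strongest member (765), 95 bp from the summit and 8 bp upstream of the eIF6 start. The site thus occurred at members near both ends of the signal range.

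The genes next to members showed no marked group among the lists examined. Of the 617 genes with a start within 1000 bp of any summit of the class, 172 had a member there (27.9%). Of the 49 genes on 1 of the 28 lists, 14 did, and of the 568 on none, 158 did, both near that share. No list was tested. Both translation initiation factors in the class had a member, eIF6 at 765 and eIF4G2 at 80.3. Of 4 cytoplasmic ribosomal protein genes 2 did, RpL34b and RpS27A, both with signals near 98. The summit near RpL34b lay 915 bp from its start and 52 bp from that of CG34117. That near RpS27A lay 19 bp from the start it shares with Ip259.

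Of 8 genes of the respiratory chain and ATP synthase 1 had a member, ATPsynE (142), and of 3 mitochondrial ribosomal protein genes 0 did. The summit near ATPsynE lay 819 bp from its start and 164 bp from that of spn-B. No glutathione transferase of 4 and no odorant-binding protein of 2 had one. Of the Polycomb and trithorax groups, Trl had one (240) and osa did not. Of the insulator proteins, BEAF-32 had one (91.3) and ZIPIC did not. The summit near BEAF-32 lay 979 bp from its start and 67 bp from that of Spred. Other list genes with members were Or88a, an odorant receptor gene (228), Cyp6u1, a cytochrome P450 (395), Tim17b1 of the mitochondrial import machinery (106), Rab1, a GTPase of early vesicle traffic (94.8), Cpr73D, a cuticle protein gene (92.9), Nup107 of the nuclear pore (91.7) and Hsp22, a small heat shock protein (75.0). Some of these summits lay nearer to another gene. Distances were 768 bp to Or88a and 356 bp to CG12402, and 100 bp to Cyp6u1 and 7 bp to Ufsp1. They were 971 bp to Tim17b1 and 397 bp to mtd, and 670 bp to Cpr73D and 420 bp to Ogdh. Rab1 (40 bp), Nup107 (95 bp) and Hsp22 (413 bp) were the nearest genes to theirs. The E(spl) and proneural genes, the Hox and segmentation genes and the histone genes had 0 genes in the class.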

How the data were processed

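ChIP-seq was done on chromatin of embryos, sonicated to 200 to 800 bp, per the labels. The authors called peaks on each of the 2 replicates and on their pool against 1 control and derived the thresholded set from those lists, per the inventory text they deposited. Aligner, peak caller and versions: not given in the sources used here. Each dm6 list of the authors gives a summit, a signal value, which is not stated to be normalised to depth, and the -log10 of the q-value, which saturates at 3.89. The pooled list and both replicate lists hold 30000 summits each. The control and the dm3 lists were not analysed here.

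Summits were placed on the Release 6 genome and 19607 starts of 13945 protein-coding genes (Ensembl, BDGP6.54), after chromosome ends had been checked. Of 373 pooled summits in the class, 90 were members and 270 background, and 13 that overlapped a thresholded peak were left out. Arrangements were read from all starts within 1000 bp of the summit. Each share was tested with Fisher's exact test, two-sided, and p-values were adjusted by Benjamini and Hochberg's method over a family of tests. Odds ratios had 0.5 added to every cell. Intervals of shares are exact binomial (Clopper-Pearson, 95%). Motifs and 7-mers were searched on both strands of windows reaching 100 bp to either side of the summit. TATA and initiator words were searched on the gene's strand, at -45 to -15 and -10 to 10 bp from the nearest start. A replicate summit within 100 bp counted as matched.

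Named loci were the 15 members of highest signal, the 3 strongest of each arrangement, the 3 with most genes, the 3 whose replicate ranks differed most, the 3 weakest, the 3 strongest background summits, the 3 strongest genes of each list and the 10 7-mers of smallest p. Replicate ranks were compared only for members matched in both replicate lists. The members and lists were chosen with earlier results of these data known. Alternatives covered each replicate alone, the 1000 strongest peaks, other distances, other backgrounds, GC content and summits outside coding sequence, of which the last, and GC bins for 7-mers, were chosen after seeing the data. The tests were tested on simulated data. Python 3.11.15 was used with numpy 2.4.6, scipy 1.17.1, pandas 2.3.3 and matplotlib 3.10.9.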

Additional observations from a re-analysis of the deposited data

How the results depend on the processing

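All values here are odds ratios. The lower threshold share than at head-to-head promoters, the low share in coding sequence and the low share near a start beside thresholded head-to-head promoters kept direction and call under every alternative run for them, with ranges of 0.405 to 0.549, 0.0273 to 0.0822 and 0.145 to 0.433. The last of these depends in part on the class rule, which sets the spacing of divergent starts. No alternative called a motif or a 7-mer against the background of the class. Where a direction changed, neither value passed its test. The causes of the changes below were not tested. No read totals are known, so a limit of depth cannot be given, and 90 peaks give wide intervals. No paired analysis was possible because there is only 1 group.

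With the 1000 strongest peaks, values that lost their call were the upstream share at 3.62, nearness to the downstream gene at 1.73, and motif 7 and the Initiator beside head-to-head promoters at 0.259 and 5.08. Wide head-to-head pairs against the rest of the class gained one at 3.87. Directions changed for nearness to a start at 0.501 against background and 0.800 against single-gene promoters, the upstream share against single-gene promoters at 0.771, wide against close head-to-head pairs at 1.29, and, against background, motif 7 at 0.771, CAGCTG at 1.17, CAGGTG at 0.214 and the Initiator at 1.10.

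With a promoter distance of 300 bp, calls were lost for nearness to the downstream gene at 4.66, separate tandem starts at 0.609, and motif 7 and the Initiator beside head-to-head promoters at 0.481 and 3.08, and gained for transcripts with the same start and end at 0.239. Directions changed for the threshold share against single-gene promoters at 0.988, the X share at 0.962 and CATATG at 0.768.

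The alternative with crowding within 500 bp also lowered the distance limit for head-to-head pairs and left 112 members. Of these, 64 had only a divergent pair at most 1000 bp apart, a kind that the class rule excludes. Calls were lost for nearness to the downstream gene at 1.05, separate tandem starts at 0.292 and motif 7 at 0.719. They were gained for the threshold share against single-gene promoters at 1.59, the same-strand share at 0.492, the upstream share against single-gene at 2.60 and head-to-head promoters at 2.63, and the divergent pairs, here at most 1000 bp apart, at 2.46. Directions changed for shared starts at 0.651 against background and 0.643 against the rest of the class, the X share at 0.817, strong peaks at 0.751, nearness to a start against single-gene promoters at 0.812, facing starts at 0.588, mixed loci at 0.910 and motif 1 at 2.28.

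With head-to-head pairs of any gap left out, separate tandem starts at 0.522, motif 7 at 0.527 and the Initiator at 3.79 lost their calls, and the threshold share against single-gene promoters at 0.900, strong peaks at 0.790 and loci with transcripts of the same start and end at 1.03 changed direction. With 1 start a gene, motif 7 at 0.622 and the Initiator at 2.79 lost their calls and the same-strand share at 0.449 gained one. At least 3 genes at 1.17, the X share at 0.862, strength in both replicates at 1.06, loci with transcripts of the same start and end at 1.31, motif 8 at 0.813, CATATG at 0.821 and the Ets word at 1.01 changed direction. With shared starts merged, motif 7 at 0.384 and the Initiator at 2.97 lost their calls, the same-strand share at 0.416 and wide pairs at 2.55 gained one, and the threshold share against single-gene promoters at 0.906 and motif 1 at 1.10 changed direction. With 1 summit a promoter, motif 7 at 0.436 and the Initiator at 3.44 lost their calls. In windows of 50 bp to either side these were lost at 0.408 and 3.84, and motif 7 at 0.946, motif 8 at 0.903, CATATG at 0.778 and CAGGTG at 0.920 changed direction against background. In GC bins the GAGA word at 1.12, CATATG at 0.946 and the N-box, CACNAG, at 1.21 did.

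Outside coding sequence, an alternative chosen after seeing the data, the upstream share at 2.33, nearness to the downstream gene at 2.90 and separate tandem starts at 0.658 lost their calls, and nearness to a start at 0.997, CATATG at 0.975 and the N-box at 1.05 changed direction.

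Over the replicate lists taken alone, separate tandem starts ran from 0.425 without replicate 1 to 0.570 without replicate 2, where the call was lost, and the Initiator from 3.07 without replicate 2, where it was lost, to 3.99. The other ranges that crossed or lay on the other side of 1 were 0.922 to 1.03 for the threshold share against single-gene promoters, 0.933 to 0.979 for strong peaks, 1.15 to 1.35 for loci with transcripts of the same start and end, 0.961 to 0.999 for nearness to a start against single-gene promoters, 0.514 to 1.23 for facing starts and 0.348 to 4.59 for mixed loci. The same-strand share ran from 0.601 to 0.963, the share in coding sequence from 0.0446 to 0.0662, the DRE from 1.31 to 2.86 and the GATA word from 1.19 to 1.72. Among motifs, CAGGTG lay on the other side of 1 in both lists, at 0.852 to 0.870. The ranges across 1 were 0.239 to 2.74 for the Ets word, 0.970 to 1.24 for GAGA, 0.154 to 1.36 for the Zelda word and 0.968 to 1.20 for the BEAF-32 core.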
